A study of Mus musculus with 6 samples.

Results

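The nuclear genes that encode the subunits of respiratory complexes II, III, IV and V, together with cytochrome c, were described in fully grown mouse oocytes with and without Nat10. The members were taken from the gene symbols of the count table: symbols that begin with Uqcr, Cox4 to Cox8 or Atp5, and Sdha, Sdhb, Sdhc, Sdhd, Cyc1 and Cycs. This gave 49 genes of the 25239 in the table, after 1 matching pseudogene was left out. The rule reads gene symbols and no measured value. The 3 wild-type (WT) libraries and the 3 Gdf9-cre Nat10 conditional knockout (cKO) libraries were made by Smart-seq2 from poly(A) RNA of oocytes of PMSG-primed females, collected 36 to 48 h after the hormone. Gdf9-cre expresses the recombinase from a promoter that is active in the oocyte, so the deletion is made in the germ cell and not in the somatic cells around it. NAT10 is the enzyme that places N4-acetylcytidine on RNA. The labels give no strain, age, deleted exon or number of oocytes and females per library, and they do not say whether the WT females carried Cre. Replicates are named only as separate samples, so the p-values cover no more than differences among these libraries, which could be of technical origin.

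The respiratory chain passes electrons to oxygen and pumps protons across the inner mitochondrial membrane, and ATP synthase uses the resulting gradient. Complex II (succinate dehydrogenase) links the citric acid cycle to the chain and is encoded entirely in the nucleus, whereas complexes III, IV and V also contain subunits of the mitochondrial genome, which are not analysed here. The growing oocyte accumulates a very large number of mitochondria and depends on oxidative phosphorylation of pyruvate supplied by the follicle cells.

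The libraries held 20167665 to 29407659 counts, and 16012 to 17072 genes were detected in each. Nat10, the deleted gene, stood at 48.1, 45.0 and 64.5 CPM (counts scaled to a common library total after TMM normalization) in WT libraries 1 to 3 and at 7.18, 7.65 and 7.99 in cKO libraries 1 to 3, a log2 fold change of -2.79 ± 0.19 (SE). All 3 cKO libraries lay below all WT libraries. The 10 oocyte markers, among them the zona pellucida genes, summed to 25813 to 30238 CPM in WT and 29461 to 30693 CPM in cKO; 3 of them were higher in cKO, Zp3 and Figla among them, and Nlrp5 was lower. Granulosa and cumulus markers, 11 genes, summed to 91.7 to 96.7 CPM in WT and 73.1 to 79.3 in cKO. Of the 8 tested, 3 (Inha, Hsd17b1 and Inhbb) were lower in cKO, or 37.5% beside 20.1% of all tested genes. These 3 averaged 10.4, 2.42 and 1.23 CPM in WT, so most of the sum came from other markers. Of the 11 markers, 5 averaged under 1 CPM. Theca and stroma markers (6 genes) summed to 2.80 to 3.67 CPM in WT and 2.40 to 3.60 in cKO, endothelial markers (3 genes) to 59.1 to 66.1 and 56.2 to 68.0, nearly all of it Pecam1, while Kdr was lower in cKO (4.29 against 0.187 CPM on average), and blood and immune markers (5 genes) to 2.44 to 3.10 and 3.38 to 3.79, with Adgre1, Hba-a1 and Hbb-bs at 0. The part of these cells in the results below was not tested.

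On the TMM scale, relative to the other transcripts of the oocyte, subunit transcripts of complexes III, IV and V and cytochrome c were more often higher than lower in Nat10 cKO oocytes. Those of complex II were not called in either direction on that scale. Of the 49 members 47 could be tested, and 26 of them were higher and 2 lower in cKO by edgeR's quasi-likelihood test with Benjamini-Hochberg adjustment over all genes. That is 55.3% higher and 4.26% lower, where the background over all 14114 tested genes was 20.1% in each direction. The median log2 fold change of the tested members was 0.38, with 41 of 47 above 0, beside 0.01 over all tested genes. Most changes were small: 15 of the 26 higher members changed by under 1.5-fold, and 5 members changed by at least 2-fold (Cyc1, Cox8c, Cox7a1, Atp5d and Atp5g3).

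The counts depend on transcript length and on what the libraries are scaled to. The members are short, and of the 1143 tested genes under 1000 bases 31.6% were higher and 8.40% lower in cKO. After a per-library correction for length, 12 members were higher and 5 lower (17.1% and 22.1% of all genes; members' median 0.07). With GC content added, 15 were higher and 4 lower (18.7% and 22.8%; median 0.14). With scaling to the ERCC spike-in RNA, 5 members were higher and 6 lower, the members' median log2 fold change was -0.04, and that of all tested genes was -0.39 (8.37% of all genes higher and 34.2% lower). The 6 include Atp5a1, whose libraries spread widely within both genotypes. Without cKO replicate 3, 16 members were higher, and the 10 calls lost were Uqcr11, Cycs, Cox4i1, Cox5a, Cox5b, Cox6c, Cox7a1, Atp5k, Atp5l and Atp5mpl. In bulk libraries, fewer oocytes and less RNA per oocyte cannot be told apart, so every fold change below is a change relative to the other transcripts unless the spike-in is named.

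**Figure D1:**
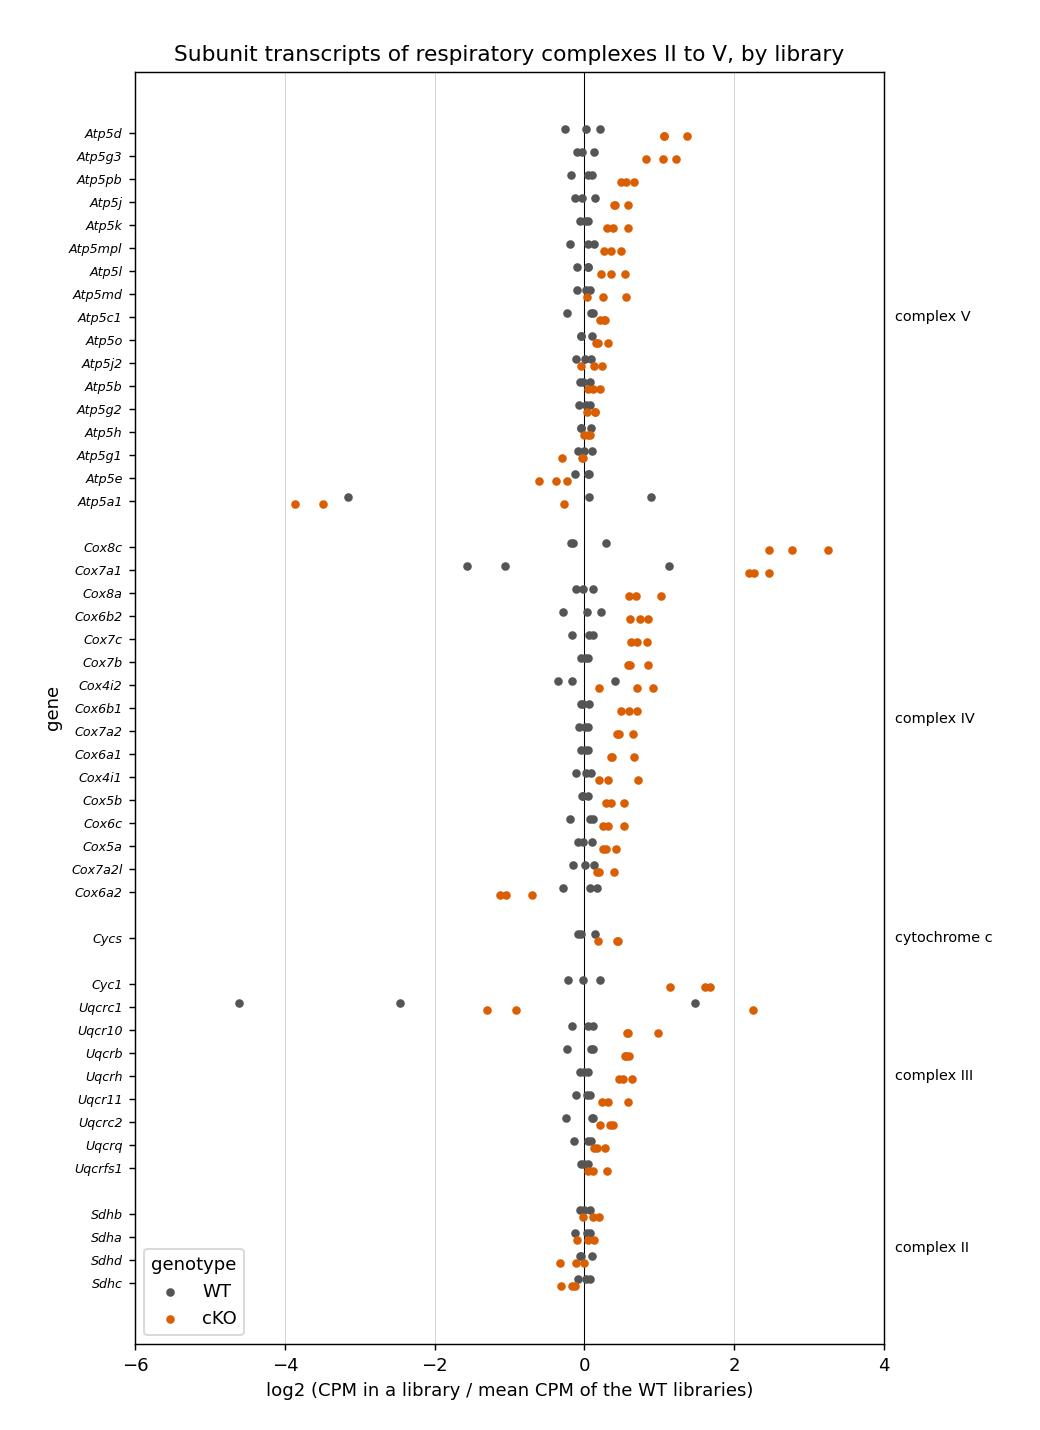
Level of each tested subunit transcript in every library, as log2 of its CPM over the mean CPM of the 3 WT libraries, grouped by complex (grey, WT; orange, cKO; 1 point per library). In 31 of 47 genes all cKO points lay to the right of all WT points, in 3 to the left, and in 13 the groups overlapped; Atp5a1 and Uqcrc1 spread widely within both genotypes.

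In 31 members all 3 cKO libraries lay above all WT libraries, in 3 (Sdhc, Cox6a2 and Atp5e) below, and in 13 the groups overlapped. Over all tested genes each of the non-overlapping arrangements was found in 26% of genes.

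No complex II transcript changed past the threshold on the TMM scale: none of the 4 was called by edgeR, DESeq2 or limma-voom, and in edgeR 0 of them had an unadjusted p under 0.05. Sdha, the flavoprotein that oxidises succinate, stood at 201, 179 and 207 CPM in WT and 202, 215 and 183 in cKO (log2 fold change 0.03 ± 0.12). Sdhb, the iron-sulfur subunit, stood at 101, 96.9 and 106 CPM in WT and 109, 99.4 and 115 in cKO (0.09 ± 0.12). In both catalytic subunits the libraries of the genotypes were interleaved. Of the membrane anchors that hold the complex and bind ubiquinone, Sdhd stood at 269, 299 and 267 CPM in WT and 258, 277 and 222 in cKO (-0.14 ± 0.12), and Sdhc at 198, 191 and 178 CPM in WT and 152, 173 and 169 in cKO (-0.20 ± 0.12, edgeR adjusted p = 0.194). The Sdhc libraries did not overlap although the difference was not called. Per length, Sdhd was the highest of the 4 at 216 ± 14.1 RPKM (CPM per kilobase of exon, SD, n = 3) in WT and 196 ± 21.8 in cKO. Complex II was the complex whose median log2 fold change lay below 0 under TMM (-0.05) and lowest after spike-in scaling (-0.45, beside -0.39 over all tested genes). Sdhc was then called lower (-0.61, edgeR adjusted p = 0.0150), as was Sdhd (-0.55, edgeR adjusted p = 0.0308), where 34.2% of all genes were lower. With length corrected both were called lower too (Sdhc -0.46, edgeR adjusted p = 0.00524, and Sdhd -0.39, 0.0327), beside 22.1% of all genes. With length and GC content corrected Sdhc was called lower (-0.52) and Sdhd was not (-0.25).

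The region upstream of Sdha is shown because it holds 3 matches to the NRF1 motif, GCGC and GCGC with 2 free bases between them, in a gene whose level was not called changed. NRF1 is a transcription factor known for nuclear respiratory genes. It is chr13:74350241-74350490 of GRCm38 (RefSeq GRCm38.p6), minus strand, the 250 bases before the start site, with the matches in capitals.
Sdha: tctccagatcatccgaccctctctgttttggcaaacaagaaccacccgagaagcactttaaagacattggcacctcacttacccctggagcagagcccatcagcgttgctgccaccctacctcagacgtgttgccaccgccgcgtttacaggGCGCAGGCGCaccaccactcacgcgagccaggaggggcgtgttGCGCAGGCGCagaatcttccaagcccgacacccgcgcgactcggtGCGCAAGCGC

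Complex III transcripts were higher in 5 of 9 genes and lower in none, with a median log2 fold change of 0.54 (0.14 after spike-in scaling, with 1 of 9 higher; 0.22 with length corrected, with 2 higher). With length and GC content corrected 5 of the 9 were higher (55.6%, beside 18.7% of all genes), with a median of 0.35. The largest change was in Cyc1, which encodes cytochrome c1, the haem subunit that hands electrons to cytochrome c. Cyc1 stood at 31.0, 27 and 36.2 CPM in WT and 96.0, 69.1 and 100 in cKO, 2.82-fold higher (log2 1.5 ± 0.17, edgeR adjusted p = 4.76e-05). Every cKO library held clearly more than the highest WT library. After spike-in scaling Cyc1 was still called higher (log2 1.12). Uqcrh, the hinge protein that sits beside cytochrome c1, was the highest of the complex per length, at 404 ± 15.1 RPKM in WT and 589 ± 36.5 in cKO (SD, n = 3). It stood at 229, 221 and 212 CPM in WT and 317, 304 and 343 in cKO (0.54 ± 0.11, edgeR adjusted p = 0.00181). Its WT libraries were close together, and all cKO libraries lay above them. With length corrected Uqcrh was not called (0.22, edgeR adjusted p = 0.0941), and with length and GC content corrected it was (0.35, 0.0111). After spike-in scaling Uqcrh was not called (0.14).

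The region upstream of Uqcrh is shown as that of a higher member with a match to CCGGAAGT, the letters of the ETS factor GABPA, which regulates many respiratory genes. It is chr4:116075071-116075320 of GRCm38 (RefSeq GRCm38.p6), minus strand, the 250 bases before the start site. The match, on the other strand, is in capitals.
Uqcrh: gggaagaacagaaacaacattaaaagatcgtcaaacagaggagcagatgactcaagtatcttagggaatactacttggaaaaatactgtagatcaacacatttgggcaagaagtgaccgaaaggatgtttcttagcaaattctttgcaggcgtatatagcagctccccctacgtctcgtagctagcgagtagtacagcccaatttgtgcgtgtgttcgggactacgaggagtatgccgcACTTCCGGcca

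The small accessory subunits Uqcr10, Uqcrb and Uqcr11, which surround the catalytic core, were called too. Uqcr10 stood at 66.1, 69.2 and 56.9 CPM in WT and 96.1, 95 and 127 in cKO (0.72 ± 0.15, edgeR adjusted p = 0.00205). Uqcrb stood at 55.2, 54.0 and 43.2 CPM in WT and 74.1, 76.6 and 74.8 in cKO (0.56 ± 0.14, edgeR adjusted p = 0.00658). Uqcr11 stood at 87.4, 89.8 and 79.4 CPM in WT and 106, 101 and 128 in cKO (0.38 ± 0.13, edgeR adjusted p = 0.0345). In all 3 genes the genotypes did not overlap, and in Uqcr10 and Uqcr11 cKO replicate 3 was the highest library. Uqcrb was not called with length corrected (0.25, edgeR adjusted p = 0.138) but was with GC content added (0.47, 0.00524). After spike-in scaling Uqcr10 (0.30), Uqcrb (0.15) and Uqcr11 (-0.03) were not called. The Uqcr11 call was lost when any 1 library other than cKO replicate 2 was left out (adjusted p 0.0504 to 0.135). The other members were not called: Uqcrq at 0.19 ± 0.11, the Rieske iron-sulfur protein Uqcrfs1 at 0.15 ± 0.12, the core protein Uqcrc2 at 0.31 ± 0.13 (called with length and GC content corrected, at 0.32), and Uqcrc1, which is described below.

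Cytochrome c (Cycs), the mobile carrier between complexes III and IV, stood at 123, 105 and 108 CPM in WT and 127, 151 and 153 in cKO. The lowest cKO library was just above the highest WT library, and the log2 fold change was 0.35 ± 0.13 (edgeR adjusted p = 0.0406). The call was lost without WT replicate 2, WT replicate 3, cKO replicate 2 or cKO replicate 3 (adjusted p 0.0826 to 0.113), and the spike-in value was -0.06. With length corrected the call was lost too (0.32, edgeR adjusted p = 0.0643), and with length and GC content corrected it held (0.53, 0.00536). Cycs shares a stretch at least 95% identical over 100 bases or more with transcripts of 51 other genes, 3 of them pseudogenes. What these stretches are was not tested, and the sources used here do not say how reads from them were counted.

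Complex IV (cytochrome c oxidase) had the most called genes: 13 of 16 tested were higher and 1 lower, with a median log2 fold change of 0.56 (0.15 after spike-in scaling, with 2 higher and 1 lower). With length corrected 7 were higher (median 0.25). With length and GC content corrected 5 of 16 were higher (31.2%, median 0.17), a smaller share than the 5 of 9 in complex III (55.6%, median 0.35). The nuclear subunits of complex IV surround the catalytic core that the mitochondrial genome encodes. Cox7b stood at 147, 153 and 157 CPM in WT and 228, 232 and 274 in cKO (0.69 ± 0.12, edgeR adjusted p = 6.69e-04). Cox7c stood at 125, 121 and 103 CPM in WT and 179, 188 and 207 in cKO (0.72 ± 0.13, edgeR adjusted p = 7.28e-04). In both genes, which code for small single-span subunits, the lowest cKO library lay well above the highest WT library. Neither Cox7b (0.28) nor Cox7c (0.30) was called after spike-in scaling, and both were called higher with length corrected (0.39 and 0.41). Cox5a, Cox5b and Cox6c, further nuclear subunits, were higher by 0.32 to 0.40 on the log2 scale, each with non-overlapping genotypes. These 3 calls did not hold after spike-in scaling, where the log2 fold changes were -0.09, -0.01 and -0.05.

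Several complex IV subunits exist as a general isoform and a tissue isoform. Subunit 4 was almost all Cox4i1, the general form that starts assembly of the complex and was the highest member of all per length, at 539 ± 36.1 RPKM in WT and 724 ± 141 in cKO (SD, n = 3). Cox4i1 stood at 436, 382 and 416 CPM in WT and 513, 471 and 675 in cKO (0.43 ± 0.14, edgeR adjusted p = 0.0247). The groups did not overlap, but cKO replicate 3 stood apart, and without it the adjusted p was 0.116 (0.0750 without WT replicate 2). Its isoform Cox4i2, known for lung and for response to low oxygen, stood at 3.10, 2.08 and 1.83 CPM in WT and 4.41, 2.67 and 3.81 in cKO and was not called (0.63 ± 0.34, edgeR adjusted p = 0.165). Cox4i2 was 0.590% ± 0.142 of the family's RPKM in WT and 0.692% ± 0.175 in cKO (SD, n = 3).

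The isoforms of subunit 6a moved in opposite directions on the TMM scale. The general form Cox6a1 stood at 200, 195 and 188 CPM in WT and 247, 251 and 306 in cKO (0.46 ± 0.12, edgeR adjusted p = 0.00800; 0.05 after spike-in scaling and -0.18 after a correction for length and GC content). The heart and muscle form Cox6a2 stood at 19.1, 17.9 and 13.9 CPM in WT and 7.78, 8.21 and 10.5 in cKO (-0.94 ± 0.22, edgeR adjusted p = 0.00404). Every cKO library was below every WT library in Cox6a2 and above in Cox6a1. The share of Cox6a2 in the family was 6.97% ± 0.862 in WT and 2.75% ± 0.122 in cKO (SD, n = 3), a description with no test of its own. Cox6a2 was lower under every scaling and correction tried (-1.37 after spike-in scaling). Its exons overlap 69 bases of Itgad on the opposite strand, and the libraries carry no strand information.

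Subunit 6b, which bridges the monomers of the enzyme, had both isoforms higher. Cox6b1, the general form, stood at 119, 126 and 117 CPM in WT and 169, 182 and 197 in cKO (0.60 ± 0.12, edgeR adjusted p = 0.00144; 0.19 after spike-in scaling, not called). Cox6b2, known as the testis form, stood at 62.1, 70.8 and 49.8 CPM in WT and 102, 92.6 and 110 in cKO (0.73 ± 0.15, edgeR adjusted p = 0.00201; 0.31 after spike-in scaling and 0.24 with length and GC content corrected, not called in either). Both genes separated the genotypes completely. With length alone corrected both were called higher (Cox6b1 0.28, edgeR adjusted p = 0.0493, and Cox6b2 0.42, 0.0261). Cox6b2 made up 27.7% ± 2.87 of the family's RPKM in WT and 29.7% ± 1.72 in cKO (SD, n = 3), and the shares overlapped between the genotypes.

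In the subunit 7a family the general form Cox7a2 stood at 159, 155 and 147 CPM in WT and 208, 212 and 242 in cKO (0.52 ± 0.12, edgeR adjusted p = 0.00331; 0.21 with length corrected, not called). Cox7a2l, a related protein that joins complexes III and IV into supercomplexes, stood at 153, 141 and 126 CPM in WT and 157, 160 and 184 in cKO and was not called (0.26 ± 0.12, edgeR adjusted p = 0.120). The groups did not overlap in either gene, and the share of Cox7a2l in the family was 37.3% ± 1.38 in WT and 33.0% ± 0.126 in cKO (SD, n = 3). With length and GC content corrected Cox7a2 was called higher (0.28, edgeR adjusted p = 0.0336), and after spike-in scaling it was not called (0.11). The heart and muscle form Cox7a1 was near the detection limit, with 2, 10 and 2 counts in WT and 35, 29 and 27 in cKO (2.32 ± 0.74, edgeR adjusted p = 0.0235). Its call held in 1 of the 6 fits that left out 1 library (adjusted p 0.00945 without WT replicate 2, otherwise 0.0516 to 0.0949).

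The largest change of all members was in subunit 8. Cox8c, known as the testis form, stood at 2.00, 2.03 and 2.75 CPM in WT and 15.4, 12.5 and 21.5 in cKO, 7.31-fold higher (log2 2.87 ± 0.28, edgeR adjusted p = 1.51e-05; 2.48 after spike-in scaling). The lowest cKO library was several times the highest WT library. The general form Cox8a stood at 126, 139 and 118 CPM in WT and 207, 194 and 259 in cKO (0.78 ± 0.14, edgeR adjusted p = 6.81e-04; 0.37 after spike-in scaling and 0.14 with length and GC content corrected, not called in either). Cox8c thus took 2.01% ± 0.520 of the family's RPKM in WT and 7.81% ± 0.894 in cKO (SD, n = 3), and Cox8a remained the main form in all 6 libraries. With length alone corrected Cox8a was called higher (0.46, edgeR adjusted p = 0.00923). Cox8b, the heart and muscle form, and Cox7b2, the other form of subunit 7b, had 0 counts in every library, which allows up to 0.1 to 0.153 CPM per library (3 counts; counting error only).

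**Figure D2:**
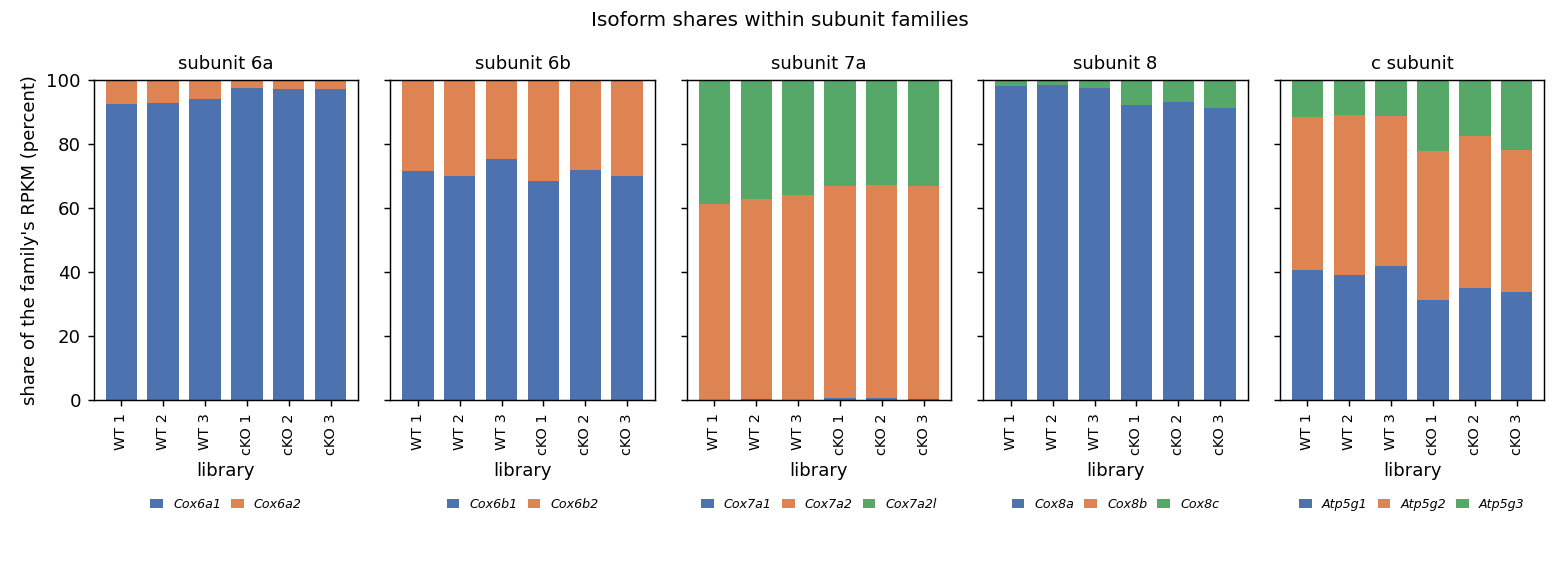
Share of each isoform in the summed RPKM of its subunit family (percent, stacked bars), in WT libraries 1 to 3 and cKO libraries 1 to 3. Cox8c and Atp5g3 held larger shares in all cKO libraries than in any WT library, Cox6a2 a smaller one, and the subunit 6b shares overlapped between the genotypes.

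ATP synthase (complex V) was divided: 7 of 17 genes were higher, 1 was lower and 9 were not called, with a median log2 fold change of 0.25 (-0.16 after spike-in scaling, with 2 higher and 3 lower; 0.02 with length and GC content corrected, with 4 higher and 2 lower). In the catalytic F1 head, Atp5b, the beta subunit that carries the catalytic sites, stood at 526, 477 and 492 CPM in WT and 540, 573 and 514 in cKO and was not called (0.12 ± 0.11). The gamma subunit Atp5c1, the rotating shaft, was not called either (0.25 ± 0.12, edgeR adjusted p = 0.124). The delta and epsilon subunits, which sit together at the foot of the shaft, moved in opposite directions. Atp5d (delta) stood at 52.0, 37.5 and 45.8 CPM in WT and 94.5, 94.3 and 117 in cKO, 2.26-fold higher (log2 1.18 ± 0.16, edgeR adjusted p = 1.19e-04; 0.78 after spike-in scaling and 0.42 with length and GC content corrected, called in both). Atp5e (epsilon) stood at 205, 203 and 179 CPM in WT and 129, 150 and 166 in cKO (-0.40 ± 0.13, edgeR adjusted p = 0.0250; -0.82 after spike-in scaling). Neither gene had overlapping groups. The Atp5e call was lost without WT replicate 1, WT replicate 2, cKO replicate 1 or cKO replicate 2 (adjusted p 0.0600 to 0.129). In WT, Atp5e was the highest member of complex V per length at 473 ± 35.3 RPKM; in cKO it stood at 359 ± 45.3 RPKM, below Atp5j2 at 479 ± 46.2 (SD, n = 3).

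The c ring, the rotor that protons turn, is built from 1 protein that 3 genes encode. Atp5g1 and Atp5g2 were the main genes and were not called: Atp5g1 stood at 137, 120 and 128 CPM in WT and 104, 125 and 126 in cKO (-0.12 ± 0.13, edgeR adjusted p = 0.490), and Atp5g2 at 119, 115 and 107 CPM in WT and 116, 125 and 124 in cKO (0.10 ± 0.12, edgeR adjusted p = 0.510). Atp5g1 was called lower after spike-in scaling (-0.53, edgeR adjusted p = 0.0388), with length corrected (-0.42, 0.0151) and with length and GC content corrected (-0.55, 0.00204). Atp5g3 stood at 32.3, 27.7 and 29.0 CPM in WT and 61.3, 52.1 and 68.9 in cKO, 2.05-fold higher (log2 1.03 ± 0.16, edgeR adjusted p = 2.67e-04; 0.64 after spike-in scaling). The genotypes overlapped in Atp5g1 and Atp5g2 and were far apart in Atp5g3. Atp5g3 made up 11.2% ± 0.389 of the family's RPKM in WT and 20.5% ± 2.56 in cKO, while Atp5g1 stood at 40.6% ± 1.40 in WT and 33.3% ± 2.05 in cKO and Atp5g2 at 48.2% ± 1.71 and 46.1% ± 1.54 (SD, n = 3; no test). Atp5g1 and Atp5g2 each have a near-identical pseudogene transcript, and Atp5g3 has none.

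The starts of the coding part that all 3 genes share are shown because they encode the same residues with different letters. The last 75 codons encode identical residues in all 3 genes, and their 225 bases are 84.9% identical between Atp5g1 and Atp5g2, 80% between Atp5g1 and Atp5g3 and 78.7% between Atp5g2 and Atp5g3. The first 90 of those bases follow, on the coding strand, from GENCODE M21 transcripts of GRCm38, with the 22 positions that differ between the genes in capitals. The genes lie on the minus strand at chr11:96072793-96075694 (Atp5g1), chr15:102662868-102671047 (Atp5g2) and chr2:73908447-73911326 (Atp5g3).
Atp5g1: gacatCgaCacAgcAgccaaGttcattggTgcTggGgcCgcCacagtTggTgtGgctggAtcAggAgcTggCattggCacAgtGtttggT
Atp5g2: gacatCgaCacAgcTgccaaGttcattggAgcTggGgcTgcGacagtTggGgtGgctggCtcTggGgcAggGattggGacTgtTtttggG
Atp5g3: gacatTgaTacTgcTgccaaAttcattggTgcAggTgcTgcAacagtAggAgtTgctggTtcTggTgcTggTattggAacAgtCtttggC

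The region upstream of Atp5g3 is shown because it was 1 of the promoters of members with TCAAGGTCA, the letters of the oestrogen-related receptors that regulate mitochondrial genes. It is chr2:73911327-73911576 of GRCm38 (RefSeq GRCm38.p6), minus strand, the 250 bases before the start site, with the match, on the other strand, in capitals.
Atp5g3 upstream: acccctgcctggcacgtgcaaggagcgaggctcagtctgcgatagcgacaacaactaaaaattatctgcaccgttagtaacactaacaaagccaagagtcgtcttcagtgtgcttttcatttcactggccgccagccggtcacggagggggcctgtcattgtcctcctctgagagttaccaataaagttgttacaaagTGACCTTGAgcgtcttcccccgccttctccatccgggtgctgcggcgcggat

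The peripheral stalk, which holds the F1 head still, had 2 of its 4 genes higher. Atp5pb (subunit b) stood at 177, 171 and 146 CPM in WT and 261, 232 and 242 in cKO (0.57 ± 0.12, edgeR adjusted p = 0.00231; 0.17 after spike-in scaling, not called). Atp5j (coupling factor 6) stood at 77.8, 69.0 and 64.3 CPM in WT and 92.4, 93.6 and 105 in cKO (0.46 ± 0.13, edgeR adjusted p = 0.0132; 0.05 after spike-in scaling, not called). The genotypes did not overlap in these genes, whose exons overlap 205 bases of Wdr77 and 123 bases of Gabpa on the opposite strand. Atp5h (subunit d) at 0.04 ± 0.11 and Atp5o (the oligomycin sensitivity subunit) at 0.21 ± 0.11 were not called. Of the small membrane subunits that shape the enzyme's dimers, Atp5k (subunit e) stood at 64.1, 62.5 and 59.7 CPM in WT and 76.5, 80.8 and 92.8 in cKO (0.42 ± 0.13, edgeR adjusted p = 0.0212), without overlap. Its adjusted p was 0.0793 without cKO replicate 3. Atp5l (subunit g) and Atp5mpl were higher by 0.38 each on the log2 scale (-0.04 and -0.05 after spike-in scaling), and Atp5j2 (0.12 ± 0.12) and Atp5md (0.30 ± 0.16) were not called.

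A pair of core subunits varied widely between libraries of the same genotype; they were singled out after their values were seen. Atp5a1, the alpha subunit of the F1 head on chromosome 18, had 2124, 927 and 90 counts in WT and 109, 969 and 78 in cKO, or 75.7, 42.8 and 4.58 CPM and 3.64, 34.0 and 2.81 CPM. Uqcrc1, the core 1 protein of complex III, had 175, 2 and 8 counts in WT and 319, 26 and 33 in cKO, or 6.24, 0.0923 and 0.407 CPM and 10.7, 0.912 and 1.19 CPM. High and low libraries occurred in both genotypes, and the high ones were not the same: replicate 1 of each genotype was high in Uqcrc1, while Atp5a1 was high in WT replicates 1 and 2 and cKO replicate 2. On the TMM scale with all libraries neither gene was called (Atp5a1 -1.61 ± 0.87, edgeR adjusted p = 0.158; Uqcrc1 0.88 ± 1.04, edgeR adjusted p = 0.528). Single libraries and settings decided this: Atp5a1 was called lower without cKO replicate 2 (-3.64, edgeR adjusted p = 0.00508), without WT replicate 3 (-2.14, 0.0401) and with no filter on low counts (-1.57, 0.0104). It was also called lower after spike-in scaling (-2.17, edgeR adjusted p = 9.90e-15), a fit that gave all genes 1 shared spread. With a robust estimate of the spread that call was lost. Uqcrc1 was called higher without WT replicate 1 (4.11, edgeR adjusted p = 0.0246) and had the opposite sign without cKO replicate 1 (-1.12, 0.466). The highest library was 16.5 times the lowest within WT and 12.1 times within cKO for Atp5a1, and 67.6 and 11.7 times for Uqcrc1. The partner subunits Atp5b, Uqcrc2 and Uqcrfs1, which assemble with these proteins in fixed proportions, did not spread in this way. Of the 8241 genes with a mean of 10 CPM or more, 11 (0.133%) had a range of 10-fold or more within a genotype; Atp5a1 is among the 8241, and Uqcrc1, whose mean is lower, is not. Exons of Atp5a1 overlap 118 bases of Haus1 on the opposite strand.

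**Figure D3:**
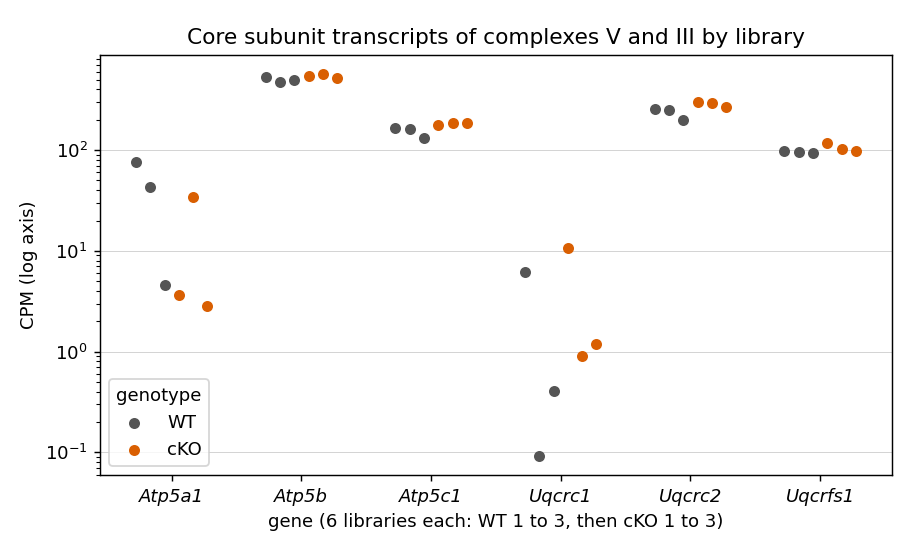
CPM (log axis) of the core subunits of complexes V and III in each of the 6 libraries (grey, WT 1 to 3; orange, cKO 1 to 3). Atp5a1 ranged from 2.81 to 75.7 CPM and Uqcrc1 from 0.0923 to 10.7 CPM across libraries of both genotypes, whereas Atp5b, Atp5c1, Uqcrc2 and Uqcrfs1 stayed within narrow bands.

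Summed over all members, the subunit transcripts took 0.627%, 0.598% and 0.574% of counts in WT and 0.778%, 0.770% and 0.872% in cKO, with no overlap. Set against the spike-in RNA, the same sums were 2156, 2211 and 1656 reads per 1000 ERCC reads in WT and 2097, 1662 and 1863 in cKO, and the groups overlapped. The share of ERCC reads was 0.250% to 0.320% in WT and 0.340% to 0.430% in cKO. Complex II alone stood lower in every cKO library on the spike-in scale, at 252, 270 and 213 reads per 1000 ERCC reads in WT and 204, 168 and 156 in cKO. Its summed share of counts was 0.0729% to 0.0738% in WT and 0.0728% to 0.0778% in cKO. After spike-in scaling the median log2 fold change was -0.45 in complex II and -0.39 over all tested genes.

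**Figure D4:**
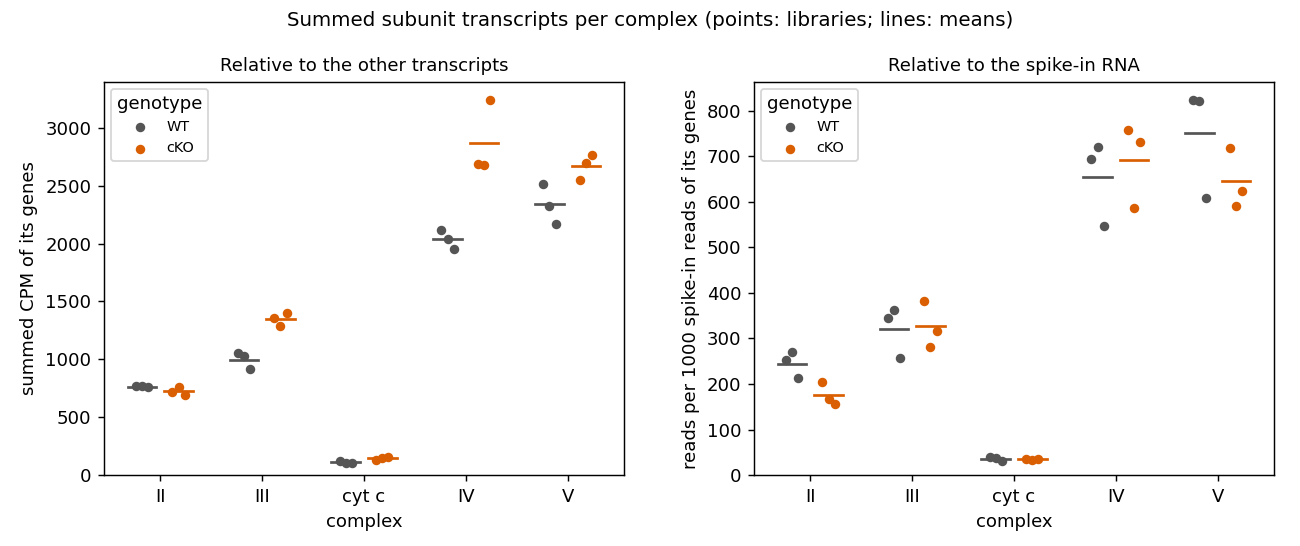
Summed subunit transcripts of each complex per library, as CPM (left) and as reads per 1000 ERCC spike-in reads (right); points are libraries and lines are means of 3. On the left the complex III, IV and V sums lay higher in all cKO libraries (cyt c, cytochrome c). On the right the genotypes overlapped for these complexes, and complex II lay lower in all cKO libraries. The median log2 fold change of all tested genes after spike-in scaling was -0.39.

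Transcript length moved with these counts. The members' median exonic length was 727 bases, against 2934 over all tested genes. Of all tested genes under 1000 bases 31.6% were higher and 8.40% lower, with a median log2 fold change of 0.29. The 31 tested members under 1000 bases had 22 higher and 2 lower (71% and 6.45%), with a median of 0.43. Of all tested genes of 1000 bases or more 19.1% were higher and 21.1% lower, with a median of -0.02. The 16 longer members had 4 higher and 0 lower (25% and 0%), with a median of 0.22. For these 16 the counts were 5 and 0 without adjustment at a p under 0.05, and 4 and 0 by DESeq2. Across the 47 members Spearman's rho between fold change and length was -0.27 and between fold change and WT level -0.46, and over all 14114 genes -0.19 and -0.27; genes of 1 set of libraries are not independent replicates. Cyc1, Cox8c, Atp5d and Atp5g3 were called higher, and Cox6a2 lower, in each of the 17 alternative fits, Atp5d with a smallest log2 fold change of 0.42.

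**Figure D5:**
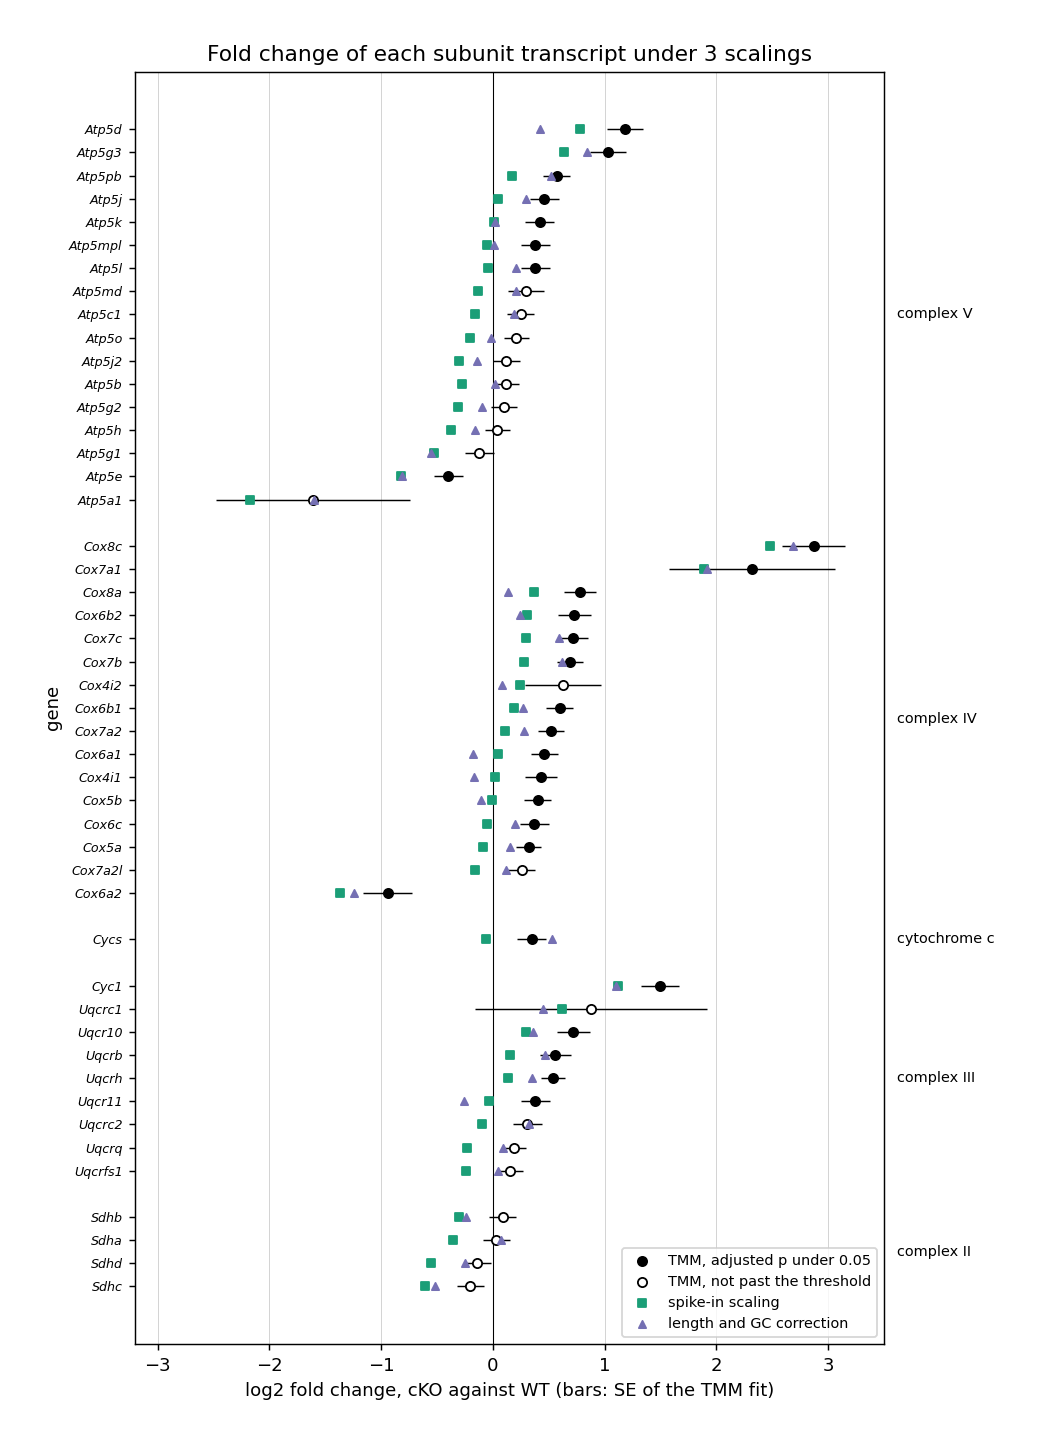
Log2 fold change (cKO against WT) of each tested subunit transcript under TMM scaling (circles, bars are SE; filled where the adjusted p was under 0.05), spike-in scaling (squares) and correction for length and GC content (triangles). Spike-in values lie to the left of the TMM values for every gene. Cyc1, Cox8c, Atp5d and Atp5g3 were called higher, and Cox6a2 and Atp5e lower, under all 3 scalings. Other genes, such as Uqcr10 and Sdhc, also stay on the same side of 0 in all of them.

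Other genes of the pathway were counted against the same background of 20.1% in each direction. Of 36 tested genes with the symbol of a complex I subunit, Ndufa4 of complex IV included, 19 were higher and 1 lower (52.8% and 2.78%). Their median log2 fold change was 0.39 (-0.02 after spike-in scaling). With length corrected 22.2% of these 36 genes were higher and 8.33% lower, beside 17.1% and 22.1% of all genes. With GC content added the shares were 19.4% and 8.33%, beside 18.7% and 22.8%. Among them Ndufa1 was at 0.86 ± 0.12, Ndufs7 at 0.77 ± 0.14 and Ndufa5 at 0.75 ± 0.14. Of 76 tested mitochondrial ribosomal protein genes 24 were higher and 6 lower (31.6% and 7.89%, median 0.21, -0.19 after spike-in scaling), led by Mrps26 at 1.86 ± 0.16, Mrpl9 at 1.01 ± 0.13 and Mrps34 at 2.25 ± 0.33. All tested genes under 1000 bases were also 31.6% higher. With length corrected 17.1% of the ribosomal genes were higher and 13.2% lower, and with GC content added 21.1% and 19.7%, near the shares of all genes. Assembly factors, which insert cofactors and join the subunits of complexes II to V but are not part of the finished enzymes, had 8 of 33 tested higher and 5 lower, or 24.2% and 15.2%, shares near the background (median 0.20, -0.21 after spike-in scaling).

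Among the called assembly factors, Cox11, which delivers copper to complex IV, stood at 1.89, 2.45 and 2.54 CPM in WT and 25.7, 13.2 and 18.6 in cKO (3.07 ± 0.28, edgeR adjusted p = 1.23e-05). Tmem70, which promotes ATP synthase assembly, stood at 256, 234 and 218 CPM in WT and 133, 137 and 117 in cKO (-0.87 ± 0.12, edgeR adjusted p = 1.59e-04). Both changes separated all cKO from all WT libraries. Lrpprc, which stabilises mitochondrial mRNAs, was lower (-0.63 ± 0.13), Coa5 was higher (0.73 ± 0.15), and of the factors of complex II Sdhaf3 was higher (0.57 ± 0.17) and Sdhaf1 lower (-0.51 ± 0.16). In complex III, Uqcc3 was called at under 3 CPM (1.21 ± 0.45), and in complex V Fmc1 was higher (0.44 ± 0.16).

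Of 5 related genes that the symbols did not capture, 4 were higher (median 0.63, 0.22 after spike-in scaling). They included Atpif1, the inhibitor of ATP synthase (0.69 ± 0.13), Ndufa4, a complex IV subunit despite its name (0.63 ± 0.12), and the complex IV factor Higd2a (0.55 ± 0.14). By its symbol, Ndufa4 was also part of the complex I count above. Of 10 genes for cristae and inner membrane shape 3 were higher and 1 lower (30% and 10%; median 0.28, -0.14 after spike-in scaling), among them Chchd6 of the cristae junction complex (0.49 ± 0.12), the protease Yme1l1 (0.66 ± 0.18) and the fusion protein Opa1 (-0.54 ± 0.17). Of 13 tested regulators of mitochondrial biogenesis 2 were higher and 1 lower (15.4% and 7.69%, neither above the background; median -0.21, -0.62 after spike-in scaling). Twnk, the helicase that replicates mitochondrial DNA, stood at 26.2, 27.3 and 28.7 CPM in WT and 6.18, 6.14 and 7.52 in cKO (-2.05 ± 0.19, edgeR adjusted p = 1.22e-05). The transcription factor Yy1 was higher (1.79 ± 0.24), as was Gabpa (1.44 ± 0.32), whose exons overlap those of Atp5j. In all 3 genes the genotypes did not overlap.

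Promoters of 37 of the 49 members, 20 of them called higher, were found in the RefSeq table (250 bases before to 50 after each start site; 3 members have more than 1) and searched on both strands, beside the 27025 genes of the table. The NRF1 motif, as in the Sdha sequence above, was present in 10 of 37 members (27%) against 7% of all genes, and 3 of the 10 were called higher. TCAAGGTCA, as upstream of Atp5g3, was present in 2 (5.41% against 0.466%), the other being Sdhd. CCGGAAGT, as upstream of Uqcrh, was present in 4 (10.8% against 4.31%), of which Cox8a, Uqcr11 and Uqcrh were higher and Atp5h was not called. The YY1 motif was found in Atp5j alone (2.7% against 0.995%). GGGCGG, the SP1 letters, was found in 15 (40.5% against 38.2%), of which 7 were higher. No match of 1 motif overlapped a match of another in these promoters. A match is a description of the letters and shows no binding.

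Reads that could come from copies were a limit for some members. A pseudogene transcript at least 95% identical over 100 bases or more was found for 15 members, of which 8 were higher and 0 lower (also 8 and 0 without adjustment at a p under 0.05, and by DESeq2), with a median log2 fold change of 0.35. Of the 32 tested members without one, 18 were higher and 2 lower, with a median of 0.43. Exons of 6 members overlapped those of a gene on the opposite strand.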

How the data were processed

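RNA was measured by Smart-seq2 in 3 WT and 3 cKO oocyte libraries, grouped and numbered from the sample titles. The protocol has no molecular identifiers and no strand information, so PCR copies count as reads and intervals cover counting error only. The authors deposited raw counts per gene with exonic lengths, per the file headers in the layout of featureCounts. STAR 2.7.10a, Trim Galore 0.6.7, featureCounts and the build mm10 appear in the submitters' processing notes. Strand and multi-mapping settings are not given in the sources used here. A deposited table of mapped and ERCC shares is headed percent but holds fractions of 1, converted here; all reads were taken as their denominator.

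The test was edgeR 4.0.16 (R 4.3.3): TMM, filterByExpr (minimum count 10, 14114 genes kept), a quasi-likelihood F test between the genotypes over the whole table, two-sided, Benjamini-Hochberg at 0.05, biological coefficient of variation 0.215. It was tested on simulated data. SE is the log2 fold change over the square root of F. RPKM is CPM per kilobase of exonic length. Named with library values were complex II, the 5 called members of smallest p in each other complex, members called lower, the highest per length, isoform families, and up to 3 called genes of each other list. Members and lists were chosen with earlier results of these data known. Alternatives were other scalings, filters, limma 3.58.1, DESeq2 1.42.0, each library left out, a replicate block, and per-library length and GC trends (mgcv 1.9.3; GC from GENCODE M21 transcripts, known for 99.1% of tested genes). Isoforms were compared by coding sequence; protein sequences were not used here.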

Additional observations from a re-analysis of the deposited data

How the results depend on the processing

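The split of members into 26 higher and 2 lower was 26 and 2 with DESeq2, limma-voom and edgeR's RLE size factors, with the same 28 genes called in each. It was 31 and 1 with library totals alone, 5 and 6 with spike-in scaling, 5 and 5 with spike-in scaling and a robust estimate of the spread (chosen after seeing the data, because the default fit gave all genes one shared spread; Atp5a1 is the gene not called), 12 and 5 with length corrected, and 15 and 4 with length and GC content corrected. Over all genes the spike-in fits called 1182 higher and 4832 lower, and with the robust spread 1174 and 4843. The all-gene median log2 fold change was -0.39 with spike-in scaling and 0.12 with totals alone. With each library left out in turn, 16 to 23 members were higher (16 without cKO replicate 3) and 1 to 3 lower (1 without WT replicate 1, WT replicate 2 or cKO replicate 1), and 17 of the 28 calls held in all 6 fits (not those of Uqcr11, Cycs, Cox4i1, Cox5a, Cox5b, Cox6c, Cox7a1, Atp5e, Atp5k, Atp5l and Atp5mpl); over all genes 2181 to 2797 were higher and 2116 to 2709 lower.

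Called members changed sign under spike-in scaling, with either estimate of the spread, in Uqcr11 (-0.03), Cycs (-0.06), Cox5a (-0.09), Cox5b (-0.01), Cox6c (-0.05), Atp5l (-0.04) and Atp5mpl (-0.05), and under the length and GC correction in Uqcr11 (-0.26), Cox4i1 (-0.17), Cox5b (-0.11) and Cox6a1 (-0.18); the cause was not tested. Sdhc was called lower after spike-in scaling and both corrections (-0.52 with length and GC). No filter on low counts gave 27 and 3, and a minimum count of 50 gave 26 and 2, with Cox7a1 and Uqcrc1 not tested and Uqcrc2 newly called. Replicate numbers did not pair the samples: deviations of same-numbered libraries correlated at -0.02, 0.0605 and 0.106, and the fit with replicate number as a block gave 28 and 3, with Uqcrc1 (1.44, adjusted p 0.0105), Uqcrc2 (0.31, 0.0296) and Atp5a1 (-1.72, 0.0095) newly called. With 3 libraries a group and counts as low as those of Cox7a1, Uqcrc1 and Cox4i2, small changes in such genes could not be resolved.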
